A study of Mus musculus with 30 samples.

Results

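The RNA of 32 genes of central carbon metabolism was followed through the cell cycle of growing C2C12 cells, a mouse myoblast line. The genes were picked by symbol as members of these pathways, with earlier results of these data known, from the 46078 genes of the deposited table; no threshold on a measured value entered the choice. They comprise 15 genes of glycolysis and lactate dehydrogenase, the 4 genes of the pyruvate dehydrogenase complex, pyruvate carboxylase and 12 genes of the tricarboxylic acid (TCA) cycle. All 32 were found in the table.

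Cells were kept undifferentiated in medium with 1 g per L of glucose, 20% serum and 2 mM glutamine, detached, stained with a Hoechst dye for DNA, and separated on a cell sorter as G1, S or G2/M cells. There was no other treatment or genotype, so all 3 phases come from the same untreated, asynchronous line, and the G1 cells are those of a dividing culture and not of a resting one. RNA-seq gave 2 columns of fragment counts per phase. The titles number the columns as replicates, while their file names could also stand for lanes. Between the 2 columns of a phase, the chi-square of the counts divided by its degrees of freedom came to 1.0 in G1, to 1.03 in S and to 1.15 in G2/M (1.04 without 1 gene model, Gm17082), close to the value of 1 that counting error alone gives. For the members with at least 300 fragments, the columns of a phase differed by at most 0.148 on the log2 scale, with medians of 0.0142 to 0.0216. They were therefore summed to 1 library per phase. Between phases there is thus no replicate error, no test was run, and each interval below is an exact 95% interval for counting error only. Both S titles name a lot, and those of the other phases do not, so in a comparison with S the lot and the phase cannot be told apart.

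Depth was similar in all 6 columns, at 16109055 to 18103769 fragments assigned to genes. Summed, G1 had 32395232 fragments, S had 35822319 and G2/M had 35907974. Levels are given as CPM (a gene's fragments scaled to libraries of one common size) after TMM scaling, a factor per library that sets most genes to the same level. A level is thus a share of the library's RNA: the RNA content of a cell is not measured, and fewer cells with a transcript and less of it per cell cannot be told apart. Comparisons between genes use TPM, which also divides by the exon length listed in the table. Textbook cycle genes differed between the sorted phases: Ccnb1, a mitotic cyclin, stood at 74.3 in G1, 242 in S and 390.3 CPM in G2/M, and Cdc6, an origin licensing factor, at 140.4, 11.2 and 24.2 CPM. The checked genes of the step from G1 to S were all highest in G1, such as Pcna at 408, 183 and 170 CPM. Those of G2/M were all highest in G2/M. None was highest in S, so no peak among these genes marks the S cells. Myoblast markers were present, with 6 of 8 at 10 CPM or more and a summed level of 949.6 in G1, 887.6 in S and 950.3 CPM in G2/M. Markers of differentiated muscle summed to 22.3 in G1, 1.925 in S and 21.34 CPM in G2/M. Of these 10 markers, Actn3 alone reached 10 CPM, and Mymk, Myh8 and Mb had no fragment in any phase. Markers of fibroblasts, macrophages, endothelium and blood summed to at most 6.166 CPM in any phase. That value was all from Pdgfra, a fibroblast marker at 0, 6.17 and 0.248 CPM in G1, S and G2/M. In other lists 2 single markers were present, Krt14 at 326, 285 and 233 CPM and Pparg at 43.5, 14.4 and 26.1 CPM in G1, S and G2/M.

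Glycolysis splits glucose into pyruvate in the cytosol. Lactate dehydrogenase turns pyruvate into lactate, and the pyruvate dehydrogenase complex instead carries it into the mitochondria's TCA cycle as acetyl-CoA. The cycle oxidises that carbon and also supplies precursors for amino acids, lipids and nucleotides, which pyruvate carboxylase can refill. Dividing cells, myoblasts among them, run glycolysis at a high rate, and muscle cells lean more on mitochondrial oxidation as they mature.

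The 32 genes made up 1.16% of all fragments in G1, then 1.04% in S and 1.19% in G2/M. Most of it came from glycolysis. The 15 genes of glycolysis and lactate dehydrogenase summed to 9284 in G1, 7873 in S and 9242 CPM in G2/M, so the sum was lowest in S on CPM. The log2 ratio of these sums was -0.24 for S over G1, 0.23 for G2/M over S and -0.01 for G2/M over G1. The 12 TCA cycle genes went another way, with 1611 in G1, 1719 in S and 1845 CPM in G2/M. Together, the 4 genes of the pyruvate dehydrogenase complex summed to 800.3 in G1, 752 in S and 706 CPM in G2/M.

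**Figure D1:**
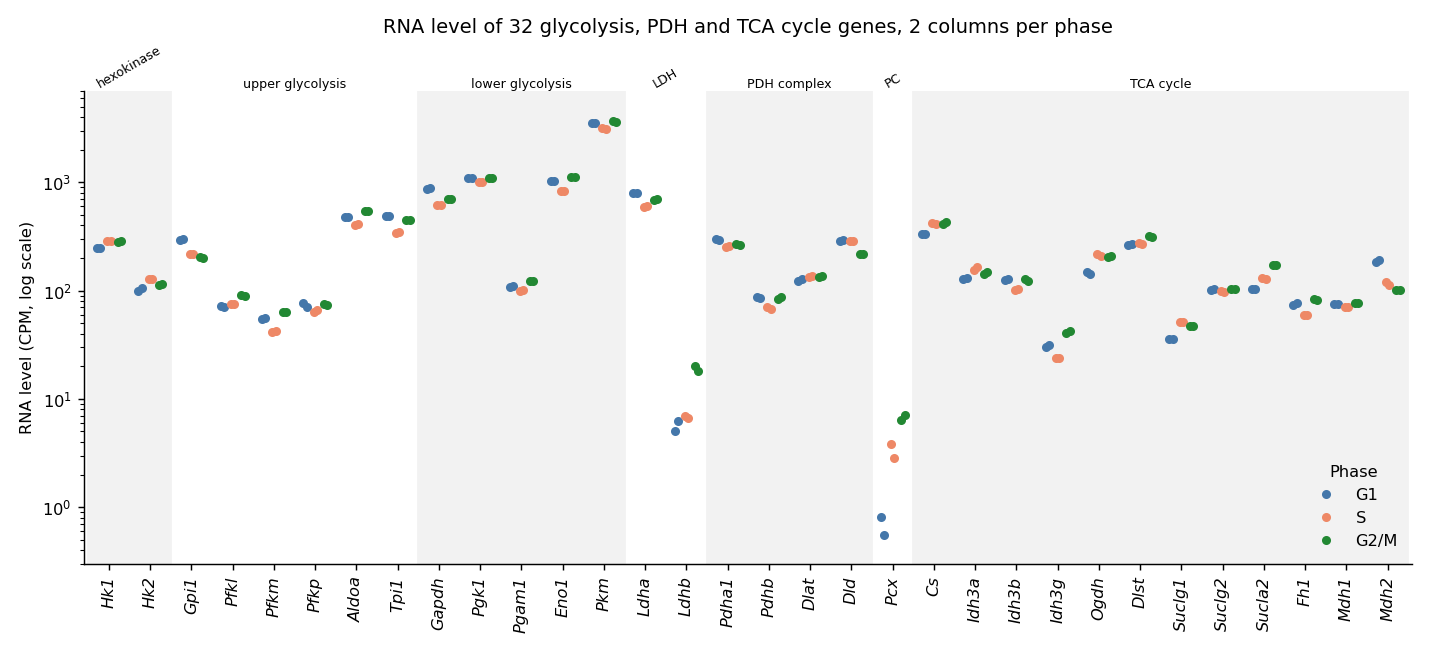
RNA level (CPM, log scale) of the 32 genes, by pathway step, with 1 point per column and 2 columns per phase in G1, S and G2/M. The columns of a phase lie on top of each other for all but the lowest genes; Pkm stands at the top with 3143 to 3646 CPM, and Pcx and Ldhb at the bottom with 0.686 to 19.2 CPM.

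Per exon length, Pkm (pyruvate kinase, which makes pyruvate and ATP in the last step of glycolysis) was the highest of the 32, with a mean of 3958 TPM over the phases. It was followed by Pgk1 (phosphoglycerate kinase, which makes ATP) at 1422 TPM and Ldha (the lactate dehydrogenase subunit common in glycolytic tissue) at 694 TPM. Tpi1, Eno1, Gapdh and Aldoa lay together between 515 and 576 TPM. Their order differed between phases, and the listed lengths of Gapdh (4133 bases) and Eno1 (5379 bases) join the exons of all annotated transcripts, so their levels per length are rough. The highest genes outside glycolysis were Cs (citrate synthase, the entry to the cycle) at 417 TPM, Dld at 353 TPM and Dlst at 309 TPM. The lowest were Pcx at 2.63 TPM, Ldhb at 20.7 TPM, Pfkp at 22.6 TPM and Suclg1 at 29.2 TPM.

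A gene was taken as measured in a comparison at 10 CPM or more in 1 of the 2 phases, and called at a 2-fold difference. Few of the 32 genes reached that size. Between S and G1, 30 genes were measured, and 0 were called higher and 0 lower in S; over all 8773 measured genes the shares were 8.59% higher and 8.62% lower. Between G2/M and S, 1 of 31 was called higher and 0 lower, against 7.13% and 6.6% of 8752 genes. Between G2/M and G1, 1 of 31 was called higher and 0 lower, against 10% and 9.82% of 8850 genes. That 1 gene was Ldhb in both. A gene without a call is not shown to be equal in the phases. The shares over all genes were smaller at higher levels. At a mean of at least 50 CPM, 3.54% of genes were higher and 2.01% lower in S than in G1. For G2/M over S the shares were 0.873% and 1.49%, and for G2/M over G1 3.87% and 2.59%. Directions here are on TMM-scaled CPM. TPM adds 0.19 to every log2 ratio of S over G1, 0.04 to those of G2/M over S and 0.24 to those of G2/M over G1, the median of all genes included, so negative ratios smaller in size than that change sign on TPM.

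At 1.5-fold the counts stayed low. Mdh2 was lower in S than in G1, against 18.4% of all genes, and 0 were higher, against 18.5%. In G2/M, Ldhb, Pfkm and Idh3g exceeded their S levels by that much, against 16.1%, and 0 were lower, against 15.4%. Ldhb and Sucla2 were higher in G2/M than in G1, against 20.2%, and Mdh2 was lower, against 19.6%. How often genes differ in these libraries depended strongly on their level. Between S and G1, 62.8% of genes with a mean of 1 to 10 CPM (the range of Pcx) differed 2-fold either way. The share was 23.3% at 10 to 50 CPM (Ldhb, Idh3g and Suclg1) and 6.58% at 50 to 200 CPM, where 15 of the 32 genes lay. At 200 to 1000 CPM, with 11 of the 32 genes, it was 2.39%.

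**Figure D2:**
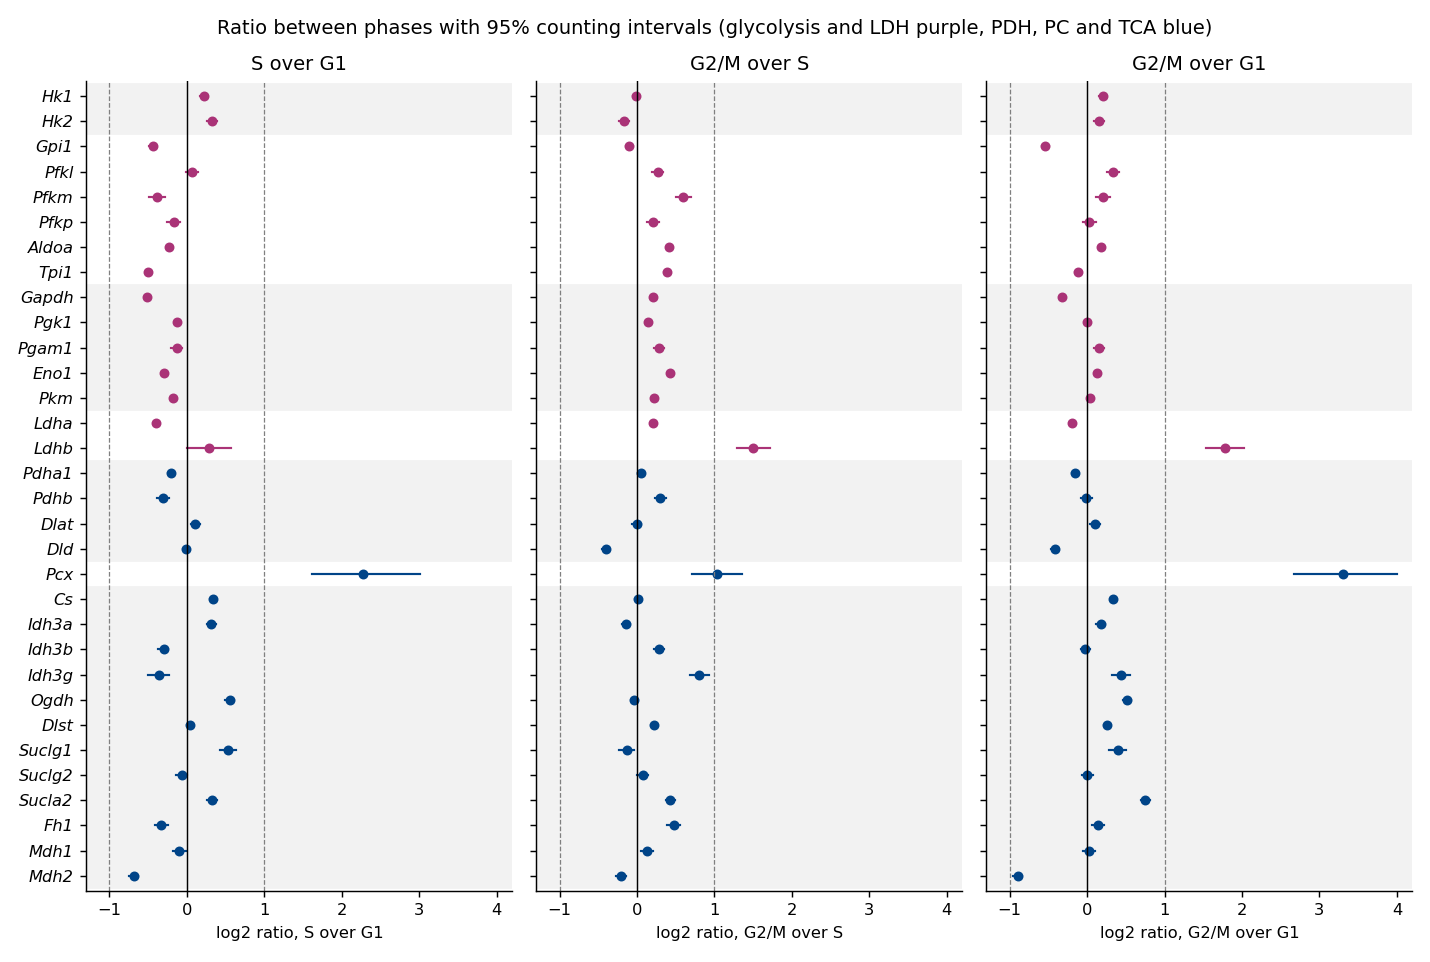
Log2 ratio of each of the 32 genes for S over G1, G2/M over S and G2/M over G1, with exact 95% counting intervals; dashed lines mark 2-fold. In the left panel 11 of the 14 measured glycolysis genes lie below 0, and in the middle panel 12 of 15 lie above it. On TPM, which raises the ratios of all genes alike, these counts are 7 and 13. Ldhb stands past 2-fold against both earlier phases, as does Pcx at a level below the minimum.

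The hexokinases, which trap glucose in the cell as glucose 6-phosphate, stood higher in S and G2/M than in G1. Hk1, the widespread form, had 3955 and 3965 fragments in the G1 columns, 5074 and 5207 in S, and 5063 and 5237 in G2/M, or 247, 287 and 284 CPM. Its S and G2/M levels could not be told apart (log2 ratio -0.01, -0.05 to 0.03), and with the adjustment for exon length described further on it was level between S and G1 (-0.01). Hk2, the form that insulin and hypoxia induce in muscle, had 102 in G1, 128 in S and 114 CPM in G2/M. Its log2 ratio was 0.32 (0.26 to 0.39) for S over G1 and -0.17 (-0.23 to -0.11) for G2/M over S. No S or G2/M column overlapped a G1 column for either gene. The split between them differed little, with Hk1 at 70.7% of hexokinase fragments in G1, then 69.2% in S and 71.4% in G2/M. Hk3 and Hkdc1, further hexokinase genes, had no fragment in any phase.

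In upper glycolysis, 4 of 6 genes had their lowest level in S, all but Pfkp of them on TPM as well. Tpi1 (triosephosphate isomerase) had 7821 and 7849 fragments in G1, 6112 and 6267 in S, and 8128 and 8189 in G2/M, or 489, 345 and 449.9 CPM. The log2 ratio was -0.50 (-0.54 to -0.47) for S over G1 and 0.38 (0.35 to 0.42) for G2/M over S. Aldoa (aldolase, which splits the sugar into its triose phosphates) had 476 in G1, 406 in S and 541 CPM in G2/M, with a log2 ratio of 0.41 for G2/M over S. Gpi1 (glucose 6-phosphate isomerase) was lowest in G2/M. It had 296 in G1, 218 in S and 203 CPM in G2/M, a log2 ratio of -0.54 (-0.59 to -0.50) for G2/M over G1. Of the exon bases of Gpi1, 16.5% lie under an antisense gene model, Gm26762, to which 0, 7 and 80 fragments were assigned in G1, S and G2/M; the counting is not stated to use strand.

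Phosphofructokinase, the main control point of glycolysis, has 3 isozymes, of which Pfkm and, on CPM but not on TPM, Pfkp were lowest in S, and Pfkl in G1. Pfkm, the muscle form, had 871 and 893 fragments in G1, 736 and 773 in S, and 1151 and 1158 in G2/M. That is 55.0, 42.1 and 63.7 CPM, with a log2 ratio of 0.60 (0.50 to 0.69) for G2/M over S, the second highest among the glycolysis genes after Ldhb. Pfkl, the liver form, stood at 71.8 in G1, 75.0 in S and 90.2 CPM in G2/M. Pfkp, the platelet form, stood at 73.3, 65 and 74.9 CPM in G1, S and G2/M. Pfkm made up 27.5% of phosphofructokinase fragments in G1, then 23.1% in S (22.1 to 24.2) and 27.8% in G2/M, and per length it made up 43.5%, 37.3% and 43.0%.

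All 5 genes of lower glycolysis had their lowest level in S on CPM, and Gapdh and Eno1 also on TPM. Over all genes at 10 CPM in 1 of the phases, 30.8% were lowest in S, and of the 31 members so measured 17 were. Another 6 (Hk1, Hk2, Dlat, Idh3a, Ogdh and Suclg1) had their highest value in S, against 30.3%, but for Hk1, Dlat and Ogdh the counting interval of G2/M over S included 0, and on TPM these 3 were highest in G2/M. The remaining values were in the order G1, S, G2/M (Pfkl, Ldhb, Cs, Dlst and Sucla2, against 19.5%) or in the opposite one (Gpi1, Dld and Mdh2, against 19.4%). Among these, Sucla2, Gpi1 and Mdh2 differed at both steps by more than counting error. The interval included 0 between S and G1 for Pfkl, Ldhb, Dlst and Dld, and between G2/M and S for Cs; among the genes lowest in S it did so between S and G1 for Suclg2. Gapdh (glyceraldehyde 3-phosphate dehydrogenase, often used as a constant reference) had 13966 and 14317 fragments in G1, 10950 and 11084 in S, and 12691 and 12958 in G2/M. Its level was 882, 615 and 707 CPM. The log2 ratio was -0.52 (-0.55 to -0.50) for S over G1, the lowest among the glycolysis genes, 0.20 for G2/M over S and -0.32 for G2/M over G1. Eno1 (enolase) had 1031 in G1, 837 in S and 1128 CPM in G2/M, with -0.30 for S over G1 and 0.43 for G2/M over S. Pkm had 3551, 3143 and 3646 CPM, Pgk1 1100.0, 1004 and 1104 CPM, and Pgam1 (phosphoglycerate mutase) 110, 100.05 and 122 CPM in G1, S and G2/M. Of the 5, these differed least between S and G1, with log2 ratios of -0.18, -0.13 and -0.13 for S over G1 and 0.21, 0.14 and 0.29 for G2/M over S.

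Other measures differed between S and G1 as well. The summed markers of differentiated muscle were also lowest in S (1.925 CPM, against 22.3 CPM in G1). Actn3 (10.9, 0 and 10.1 CPM in G1, S and G2/M) and Acta1 (6.74, 0.14 and 9.26 CPM) made up most of the sum outside S. Tnnt3 went the other way, at 0, 1.76 and 0 CPM, and Ckm had 1 fragment, in S. The part of these markers in the result was not tested. The S over G1 ratio also followed exon length over all measured genes. With genes split into 5 equal classes of length, its median was -0.22 in the class of shortest exons, then -0.11, -0.03 and 0.09, and 0.23 in the class of longest. The 32 genes had a median exon length of 3187 bases, against 4233 for all measured genes. The median log2 ratio of the measured members was -0.15 for S over G1 (all genes -0.01), and -0.04 after the median of each gene's own class of length was taken off. For G2/M over S it was 0.20 (all genes 0.01) and 0.18 with the same adjustment.

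Counted by sign, 11 of 14 glycolysis genes were lower in S than in G1, and 10 with the length adjustment; over all genes 50.4% were lower. Of 15, 12 had more RNA in G2/M than in S, and 13 with the adjustment, against 50.5% of all genes. The adjustment turned Hk1, Pgk1 and Pgam1 round in S over G1 and Hk1 in G2/M over S. On TPM, 7 of the 14 were lower in S and 6 of 15 lowest in S (10 on CPM), with Pfkp, Pgk1, Pgam1 and Pkm turned round. The median of all genes for S over G1 was itself 0.19 on TPM. The shares over all genes are on CPM, so they are no measure for these TPM counts. Relative to the median of all genes, the members' median for S over G1 was -0.15 on both scales. Gapdh, Tpi1, Ldha, Eno1, Aldoa, Pfkm and Gpi1 were lower in S than in G1 under all 3 ways of comparing.

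**Figure D3:**
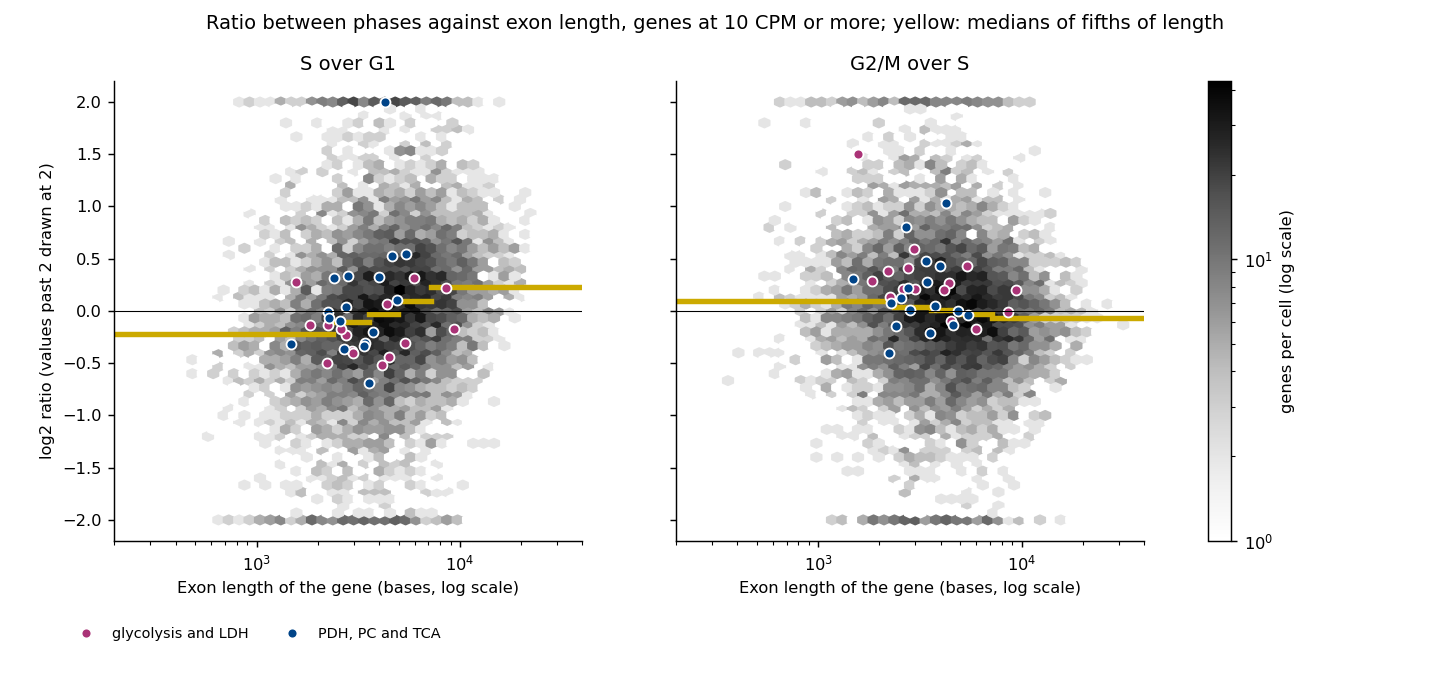
Log2 ratio of S over G1 (left) and G2/M over S (right) against exon length (bases, log scale), with all genes at 10 CPM or more in 1 phase as grey cells, all 32 members as points and the medians of 5 classes of length as yellow lines. In S over G1 the medians climb with length between -0.22 and 0.23, most glycolysis points lie below 0, and Pcx is drawn at the edge; in G2/M over S the medians run the other way, between 0.10 and -0.07.

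The 2 lactate dehydrogenase genes differed in level and in course. Ldha had 12707 and 12730 fragments in G1, 10632 and 10908 in S, and 12463 and 12760 in G2/M, or 794, 601 and 695 CPM. Its log2 ratio was -0.40 (-0.43 to -0.37) for S over G1 and 0.21 (0.18 to 0.24) for G2/M over S. Ldhb, the subunit common in heart and other oxidative tissue, had 80 and 100 fragments in G1, 123 and 121 in S, and 364 and 334 in G2/M. Both G2/M columns lay far above the other 4, which were close together, but the columns of a phase are not replicate cultures here. The gene lies on chromosome 6, 142490249 to 142507957, minus strand, in the deposited GRCm38 annotation. Its level was 5.62 CPM in G1 (4.83 to 6.50) and 6.81 CPM in S. In G2/M it was 19.2 CPM (17.8 to 20.7). G2/M was thus 2.83-fold above S (log2 ratio 1.499, 1.29 to 1.72) and 3.43-fold above G1 (log2 ratio 1.78, 1.54 to 2.02). Ldhb passed the minimum level through G2/M alone, and 19.9% of genes at a mean of 10 to 50 CPM differed 2-fold between G2/M and S. Ldha held 99.3% of lactate dehydrogenase fragments in G1, then 98.9% in S and 97.3% in G2/M, and Ldhb had 0.703%, 1.12% and 2.69%.

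The stretches before the gene starts of this pair are shown because its members stand far apart in level. Beside them are those of Pgk1, a glycolysis gene that differed little between phases, and Mdh2, the TCA cycle gene with the lowest ratio of G2/M over G1. They are the 250 bases upstream of a start annotated by RefSeq on GRCm38.p6, the first listed where a gene has several, in the gene's own direction. Capitals mark ACGTG on either strand, the core of the element bound by hypoxia-inducible factors, which is also part of the E-box CACGTG bound by Myc and related factors. Each CACGTG holds ACGTG on both strands and so counts as 2 matches. The stretches lie at chr7:46845554-46845803 (Ldha, plus strand), chr6:142507958-142508207 (Ldhb, minus strand), chrX:106186850-106187099 (Pgk1, plus strand) and chr5:135778399-135778648 (Mdh2, plus strand).
Ldha: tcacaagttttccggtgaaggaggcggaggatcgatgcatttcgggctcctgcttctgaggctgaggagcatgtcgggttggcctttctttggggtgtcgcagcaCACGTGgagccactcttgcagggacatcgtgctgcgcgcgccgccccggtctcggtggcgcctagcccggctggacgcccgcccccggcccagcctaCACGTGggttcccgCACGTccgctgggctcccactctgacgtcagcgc
Ldhb: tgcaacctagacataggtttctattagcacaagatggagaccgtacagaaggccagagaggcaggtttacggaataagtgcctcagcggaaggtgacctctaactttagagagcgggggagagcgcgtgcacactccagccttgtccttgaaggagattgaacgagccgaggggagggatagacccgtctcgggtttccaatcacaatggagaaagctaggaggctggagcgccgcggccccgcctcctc
Pgk1: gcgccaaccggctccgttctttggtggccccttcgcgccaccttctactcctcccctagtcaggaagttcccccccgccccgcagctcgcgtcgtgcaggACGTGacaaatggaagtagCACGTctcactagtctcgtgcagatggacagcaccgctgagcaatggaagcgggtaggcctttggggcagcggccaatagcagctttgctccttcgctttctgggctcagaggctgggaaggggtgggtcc
Mdh2: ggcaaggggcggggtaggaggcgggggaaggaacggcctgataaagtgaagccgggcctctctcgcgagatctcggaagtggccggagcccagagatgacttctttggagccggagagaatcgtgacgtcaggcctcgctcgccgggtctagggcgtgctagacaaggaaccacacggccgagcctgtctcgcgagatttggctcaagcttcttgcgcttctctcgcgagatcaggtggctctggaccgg

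In these stretches Ldha held 5 matches of ACGTG, 4 of them in 2 CACGTG boxes, Pgk1 held 2 outside any CACGTG, and Ldhb and Mdh2 held 0. Ldha has another annotated start, not shown, whose window held 0 matches. Over windows of 300 bases (250 before and 50 after each start), 31 of the 32 genes had at least 1 window in the RefSeq table, all but Idh3a. ACGTG lay in a window of 9 of the 15 genes of glycolysis and lactate dehydrogenase (60.0%) and of 5 of 16 mitochondrial ones (31.2%), against 21.8% of 27025 genes. A gene with several starts has several windows and so more chances of a match (Ogdh, for example, has 6). Counted per window, the shares of the 2 groups were close. All 6 windows of Ogdh held a match, and though some of them overlap, each counts in the mitochondrial share. Likeness by window is therefore not likeness by gene. ACGTG lay in 11 of 25 windows of glycolysis and lactate dehydrogenase (44.0%) and in 10 of 22 mitochondrial ones (45.5%), against 19.6% of all 32851 windows. The 9 genes were Hk1, Hk2, Pfkm, Aldoa, Gapdh, Pgk1, Pgam1, Pkm and Ldha. All of these but Hk1 and Hk2 were lowest in S on CPM, and Pgk1, Pgam1 and Pkm were not so on TPM. Among all 15 genes of glycolysis and lactate dehydrogenase, 10 were lowest in S on CPM. They included Pfkp, Tpi1 and Eno1, which had no match. A link between the letters and the levels was not tested.

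The full E-box CACGTG lay in a window of Pfkm, Ldha, Pcx and Ogdh, or 12.9% of 31 genes against 8.1% of all. GGGCGG, a box bound by Sp1-type factors, lay in windows of 22 of 31 genes (71.0%), against 38.2% of all genes. TATAAA lay in none of the 31, against 15.7%. CAGCTG, an E-box of the type bound by MyoD, lay in Gpi1, Aldoa, Pkm, Dld and Pcx (16.1%, against 18.3% of all), and TTTGAA, the box of cell cycle genes repressed outside G2/M, in Pfkm, Gapdh, Idh3b, Suclg1 and Fh1 (16.1%, against 20.2%). Both strands were searched. The shares over all genes cover every gene with a window, and are not matched to the members in RNA level or base composition. A match is a description of letters only, and no match says only that these letters are not in these windows.

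Pyruvate dehydrogenase showed small and unlike differences among its parts. Pdha1 (the alpha subunit of its first enzyme) had 297 in G1, 258 in S and 267 CPM in G2/M. Pdhb (the beta subunit of the same enzyme) had 86.0, 69.3 and 85.5 CPM, lowest in S. Dlat (the acetyltransferase core) had 126, 135 and 135 CPM, and its S and G2/M levels could not be told apart, with a log2 ratio of 0.00 within an interval of -0.06 to 0.06. Dld, the dehydrogenase that this complex shares with 2-oxoglutarate dehydrogenase, was lower in G2/M than in S, where Pdhb was higher. It had 4587 and 4747 fragments in G1, 5132 and 5233 in S, and 3955 and 3964 in G2/M, or 291, 289 and 218 CPM. Its log2 ratio was -0.41 (-0.45 to -0.36) for G2/M over S, the lowest of all 31 measured genes in that comparison, and -0.42 for G2/M over G1. For Pdha1, 16.1% of exon bases lie under Map3k15 on the other strand, which was assigned 0 fragments.

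Pcx (pyruvate carboxylase, which makes oxaloacetate from pyruvate) was the lowest of the 32. It had 13 and 9 fragments in G1, 68 and 51 in S, and 116 and 130 in G2/M, or 0.686 CPM (0.430 to 1.04), 3.32 CPM and 6.78 CPM (5.96 to 7.69). The columns of the phases did not overlap, but those of a phase were taken as 1 library, so this speaks to counting error only. The log2 ratio was 3.31 (2.67 to 4.01) for G2/M over G1. Pcx was below the minimum level in every phase and is not counted among the calls, and 68.8% of genes at 1 to 10 CPM differed 2-fold between G2/M and G1.

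The TCA cycle genes split by enzyme and even by subunit. Cs had 334 in G1, 420.2 in S and 423 CPM in G2/M, a log2 ratio of 0.33 (0.30 to 0.37) for S over G1 and 0.01 (-0.02 to 0.04) for G2/M over S. Ogdh (the first enzyme of the 2-oxoglutarate dehydrogenase complex) had 2355 and 2283 fragments in G1, 3843 and 3744 in S, and 3698 and 3794 in G2/M. This was 145, 212 and 207 CPM, and the log2 ratio of 0.55 (0.50 to 0.60) for S over G1 was the highest of the 30 measured genes. Dlst, the succinyltransferase core of the same complex, was near level between S and G1 (0.04) and stood at 265, 273 and 317 CPM in G1, S and G2/M. Dld, which completes that complex, was lower in G2/M as given above, so the 3 parts had 3 courses.

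Isocitrate dehydrogenase 3, the NAD-dependent enzyme, is built of alpha, beta and gamma subunits from Idh3a, Idh3b and Idh3g. Idh3a was highest in S, with 129 in G1, 160.5 in S and 146 CPM in G2/M. Idh3b was lowest in S, with 128, 103 and 126 CPM, and so was Idh3g, with 30.7, 23.8 and 41.6 CPM. Idh3g had 479 and 506 fragments in G1, 425 and 429 in S, and 725 and 783 in G2/M, so G2/M stood apart, 0.80 (0.68 to 0.93) above S on the log2 scale. The alpha share of the fragments of all 3 was 44.9% in G1, then 55.8% (54.8 to 56.7) in S and 46.6% in G2/M.

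Succinate-CoA ligase pairs the alpha subunit from Suclg1 with a beta subunit, from Suclg2 in the GTP-forming enzyme or from Sucla2 in the ATP-forming one. Suclg1 had 35.6, 51.4 and 46.9 CPM in G1, S and G2/M, a log2 ratio of 0.53 (0.42 to 0.64) for S over G1. Suclg2 had 103, 98.7 and 104 CPM. Sucla2, on chromosome 14 at 73525319 to 73596142, plus strand, had 1653 and 1656 fragments in G1, 2317 and 2316 in S, and 3127 and 3185 in G2/M, or 103, 129 and 174 CPM. It stood higher at each step, by 0.32 in S over G1, 0.43 in G2/M over S and 0.75 (0.69 to 0.81) in G2/M over G1. Its share of the beta subunits' fragments was 50.0% (48.8 to 51.2) in G1, then 56.7% in S and 62.7% (61.7 to 63.6) in G2/M; per length it was 36.3%, 42.8% and 48.9%.

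Fh1 (fumarase) was lowest in S, with 75.6 in G1, 60.0 in S and 83.3 CPM in G2/M. Malate dehydrogenase comes in 2 forms, which diverged. Mdh2, on chromosome 5 at 135778480 to 135790398, plus strand, codes for the mitochondrial enzyme that closes the cycle. It had 2940 and 3068 fragments in G1, 2127 and 2052 in S, and 1806 and 1847 in G2/M. Its level was 187, 117 and 101 CPM. The log2 ratio was -0.68 (-0.74 to -0.63) for S over G1 and -0.90 (-0.96 to -0.84) for G2/M over G1, the lowest of the 32 in both, and amounts to a level 1.86-fold lower in G2/M than in G1. Mdh1, the cytosolic enzyme of the malate-aspartate shuttle, had 75.4, 70.4 and 76.8 CPM in G1, S and G2/M. Mdh2 thus made up 71.3% (70.3 to 72.3) of malate dehydrogenase fragments in G1, then 62.4% in S and 56.7% (55.5 to 58.0) in G2/M. On CPM, on TPM and with the length adjustment, Mdh2 was highest in G1 and lowest in G2/M, and Sucla2 lowest in G1 and highest in G2/M.

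**Figure D4:**
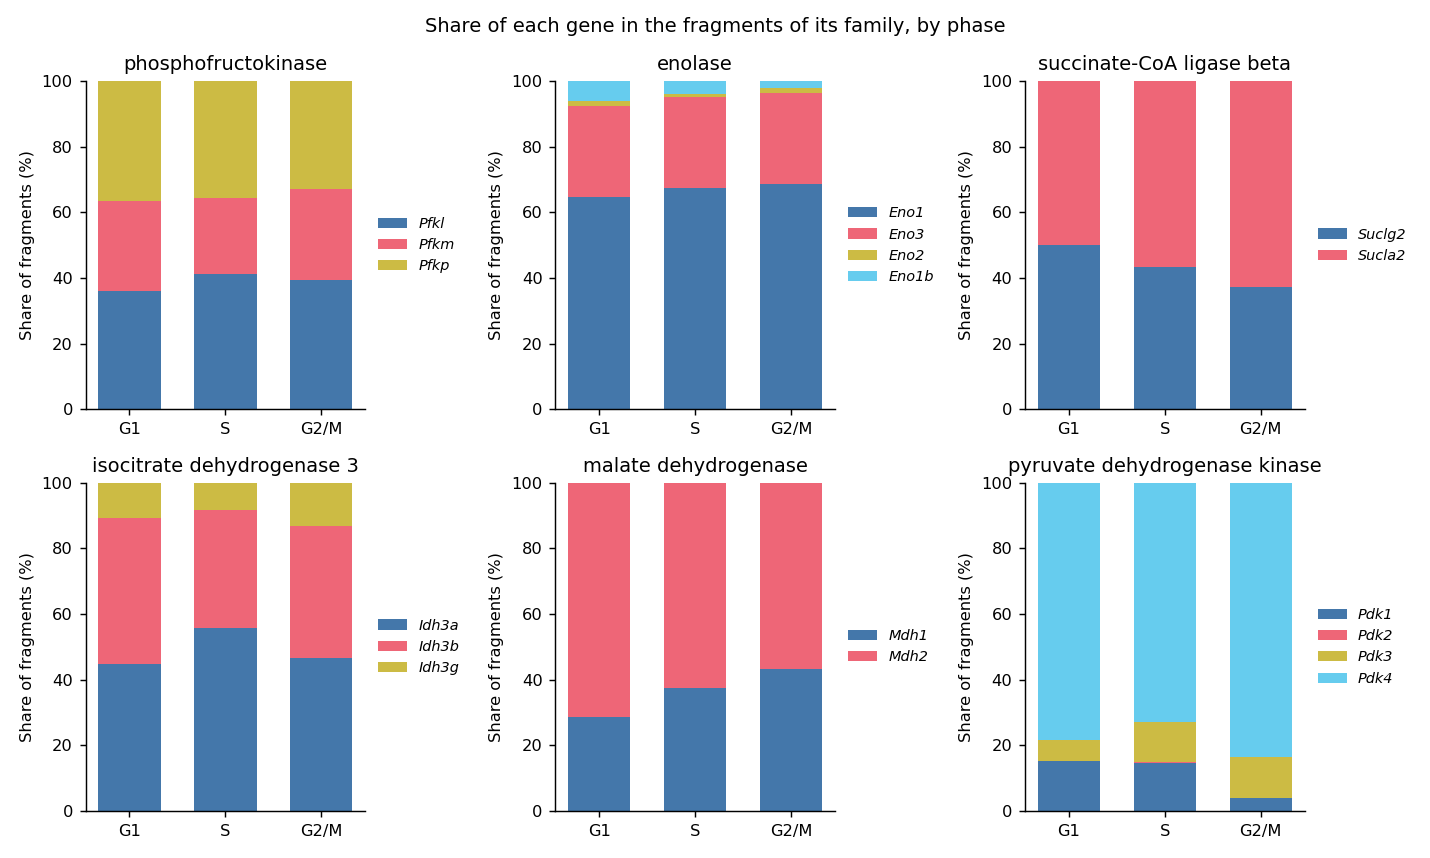
Share of each gene in the summed fragments of its family (%), as stacked bars in G1, S and G2/M for 6 families. Sucla2 is 50.0% in G1 and 62.7% in G2/M, Mdh2 is 71.3% in G1 and 56.7% in G2/M, Idh3a is widest in S, and Pdk1 is thin in G2/M.

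Of 18 other isozymes of these enzyme families, 4 reached 10 CPM. Eno3, the muscle enolase, was one of them, at 446 in G1, 344 in S and 456 CPM in G2/M. It made up 27.9%, 27.7% and 27.8% of enolase fragments in G1, S and G2/M, and per length 50.4%, 51.6% and 52.8%, a nearly constant share. Eno1b, a retrotransposed copy of Eno1, had 97.6 in G1, 48.2 in S and 34.9 CPM in G2/M. How reads shared between Eno1 and Eno1b were assigned is not stated, so the split between these copies is uncertain; the sum of fragments in Eno1b was 3130, 1729 and 1267 in G1, S and G2/M, small beside Eno1. Eno2, the neuronal enolase, had 22.5, 12.8 and 23.1 CPM. Adpgk, an ADP-dependent glucokinase, was highest in S, with 37.7, 54.8 and 35.3 CPM.

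Among regulators of the pathway a few genes differed 2-fold. Of 19 listed, 15 were measured between S and G1, and 3 were at least 2-fold lower in S (Pfkfb3, Pfkfb4 and Pdp1), against 8.62% of all genes, and 0 higher, against 8.59%. Between G2/M and S, 3 of 16 were at least 2-fold higher (Pfkfb3, Pfkfb4 and Prkaa2), against 7.13%, and 1 was lower (Pdk1), against 6.6%. Between G2/M and G1, 1 of 16 was at least 2-fold higher (Prkaa2), against 10%, and 2 were lower (Pdk1 and Pdp1), against 9.82%. These genes average under 50 CPM; at a mean of 10 to 50 CPM, 2-fold differences either way were seen in 23.3% of all genes for S over G1, then in 19.9% for G2/M over S and in 26.8% for G2/M over G1. Prkaa2, a catalytic subunit of the energy sensor AMPK named after its values were seen, had 2.50 in G1, 2.23 in S and 15.0 CPM in G2/M, and passed the minimum level through G2/M alone; at its mean of under 10 CPM, 59.3% of genes differed 2-fold for G2/M over S. Pfkfb3 and Pfkfb4 make and degrade fructose 2,6-bisphosphate, the activator of phosphofructokinase. Pfkfb3 stood at 18.3 in G1, 6.70 in S and 14.5 CPM in G2/M, and Pfkfb4 at 14.6, 6.61 and 19.7 CPM.

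Of the kinases that switch pyruvate dehydrogenase off, Pdk4 was the main one, with 219 in G1, 141 in S and 133 CPM in G2/M. Pdk1 had 42.0 in G1, 28.2 in S and 6.18 CPM in G2/M, a log2 ratio of -2.77 (-2.98 to -2.56) for G2/M over G1. Its share of the fragments of the 4 kinases was 15.1% in G1, then 14.6% in S and 3.86% in G2/M. Pdp1, a phosphatase that switches the complex on again, had 22.5, 10.5 and 8.74 CPM in G1, S and G2/M. Pdhx, the protein that anchors Dld in the complex, had 36.7, 27.8 and 45.6 CPM, a course unlike that of Dld. Hif1a, which codes for a hypoxia-inducible factor, had 152, 193 and 201 CPM, and Myc 48.0, 42.2 and 41.3 CPM.

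Among 17 transport genes, 10 were measured in at least 1 comparison. Slc25a1 was at least 2-fold lower in S and in G2/M than in G1, Mpc1 was at least 2-fold higher in G2/M than in either other phase, and Slc25a10 was so in G2/M against S. That is 1 of 9 lower in S than in G1 (8.62% of all genes), 2 of 10 higher in G2/M than in S (7.13%), and 1 of 10 higher (10%) and 1 lower (9.82%) in G2/M than in G1. All 3 average 10 to 50 CPM, the range of the shares just given, and Mpc1 passed the minimum level through G2/M alone. Slc2a1, the glucose carrier GLUT1, had 127 in G1, 95.03 in S and 77.4 CPM in G2/M, a log2 ratio of -0.71 (-0.78 to -0.64) for G2/M over G1. The insulin-responsive carrier gene Slc2a4 had no fragment in any phase. Mpc1, 1 of the 2 subunits of the mitochondrial pyruvate carrier, had 7.61, 3.57 and 23.3 CPM, while its partner Mpc2 had 58.7, 53.4 and 49.7 CPM. Slc25a1, the citrate carrier, had 64.0, 23.2 and 30.6 CPM, and Slc25a10, the dicarboxylate carrier, 23.8, 13.1 and 38.5 CPM.

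Of 17 other TCA cycle and anaplerosis genes, 16 were measured and 0 differed 2-fold in any comparison. Over all measured genes, 8.59% were higher and 8.62% lower in S than in G1. For G2/M over S these shares were 7.13% and 6.6%, and for G2/M over G1 they were 10% and 9.82%. Sdhd, a membrane anchor of succinate dehydrogenase, was lowest in S, with 242, 160.0 and 235 CPM. Of 21 genes of the pentose phosphate pathway and other side branches, 18 were measured. Tkt, the transketolase that links that pathway to glycolysis, had 69.5, 47.3 and 31.9 CPM. It was the only one of the 18 at least 2-fold lower in G2/M than in G1, against 9.82% of all genes. Pgm1, a phosphoglucomutase, had 63.9, 45.8 and 107 CPM in G1, S and G2/M. It was the only one of the 18 whose G2/M level was at least 2-fold that in S, against 7.13% of all genes.

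**Figure D5:**
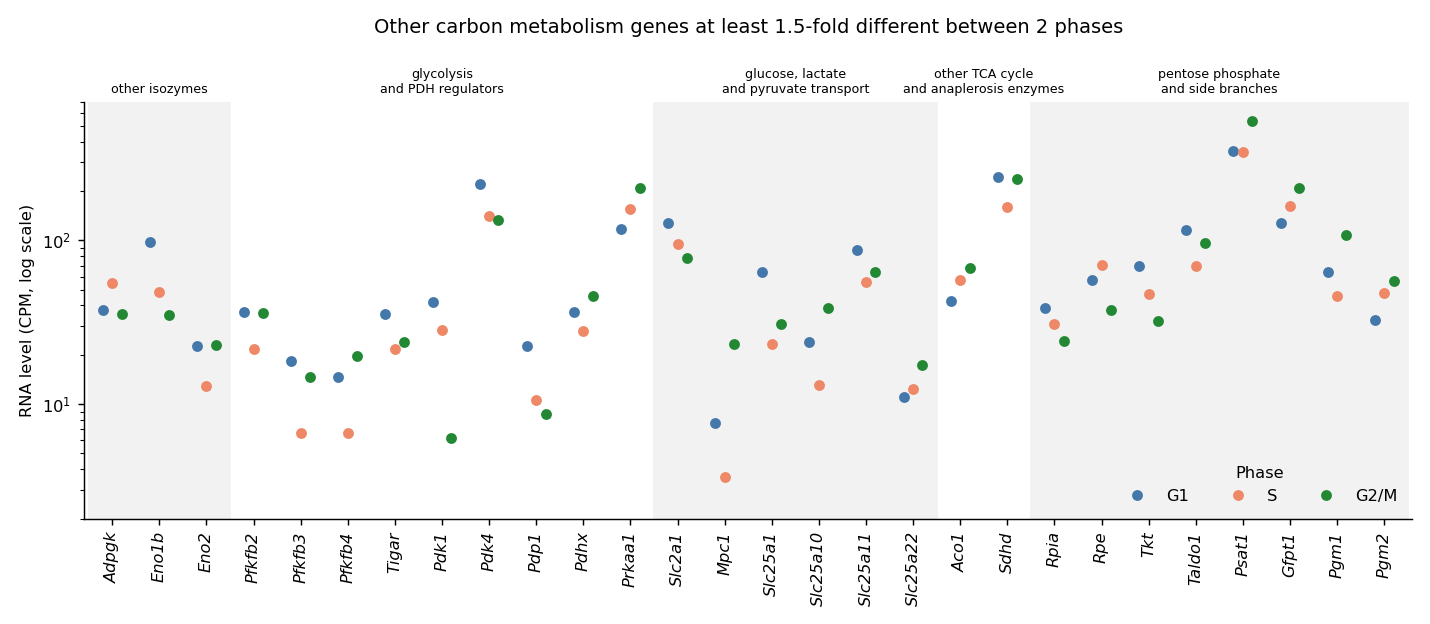
RNA level (CPM, log scale) in G1, S and G2/M of other genes of carbon metabolism, drawn from those at least 1.5-fold different between 2 phases with a mean of at least 10 CPM, grouped by list. Pdk1 is lowest in G2/M at 6.18 CPM, Mpc1 and Pfkfb3 are lowest in S at 3.57 and 6.70 CPM, and Pdk4 is highest in G1 at 219 CPM.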

How the data were processed

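RNA-seq was done on C2C12 myoblasts of 3 sorted cycle phases, with 6 columns of values, 2 per phase; the 24 samples of ChIP-seq were not used here. The deposited values are counts of fragments per gene, which the authors made, per the file headers, with featureCounts 1.5.0-p3 on read pairs and the exons of Ensembl's GRCm38 genes. The header's command names no option for strand or multiply mapping reads. HISAT2 2.1.0 is named per the submitters' processing notes, and the read filters are not given in the sources used here. Reads had 101 cycles, per the labels' protocols. The deposited table also lists, as another column, the exon length of each gene, which joins the exons of all its transcripts. Symbols matched 45143 of 46078 gene identifiers.

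The genes and lists were chosen with earlier results of these data known. Before any comparison the columns of a phase were set against each other, and since they differed by about counting noise (common biological variation 0.988% with edgeR 4.0.16), each pair was summed to 1 library. No p-values were computed between phases. CPM used TMM factors (G1 0.990, S 1.00, G2/M 1.01) over 12832 genes (R 4.3.3). Log2 ratios set a count under 3 fragments to 3. Ratios have exact binomial, levels exact Poisson and shares exact Clopper-Pearson 95% intervals, for counting error only. PCR copies are not independent molecules. The scripts were tested on simulated data. All 32 members are named, and of the other lists those averaging 10 CPM or more with a 1.5-fold difference in 1 comparison, from which examples are given (some listed genes are not reported here); other isozymes at 10 CPM and the factors Hif1a, Myc, Mpc2, Prkaa2 and Slc2a4 are added. Depth per column was 16109055 to 18103769 fragments. Alternatives were DESeq2 1.42.0 size factors, total fragments, each column left out, no minimum level, a mean of 50 CPM, 1.5-fold calls and ratios adjusted for exon length; TPM, calls at a mean of 50 CPM and the counts of glycolysis genes by order were added after seeing the data. Promoter windows are those of RefSeq on GRCm38.p6.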

Additional observations from a re-analysis of the deposited data

How the results depend on the processing

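The calls at 2-fold did not change with DESeq2 size factors, total fragments, TPM or any 1 column left out. The columns of a phase were taken as 1 library, so leaving 1 out cannot show how cultures differ. At a mean of at least 50 CPM, added after seeing the data, Ldhb drops out, which left 0 genes called in G2/M against S and 0 against G1. Of all genes at that mean, 0.873% were higher and 1.49% lower in G2/M than in S, and 3.87% and 2.59% than in G1. With no minimum level Pcx was added, which gave 1 gene higher in S than in G1, 2 in G2/M than in S and 2 in G2/M than in G1. The share over all genes without a minimum level was not computed. At 1.5-fold, 1 gene was lower in S than in G1, G2/M had 3 genes higher than S, and 2 higher and 1 lower than G1. The members' median log2 ratio of S over G1 was -0.0421 with the exon length adjustment and 0.0400 on TPM, against -0.15, and that of G2/M over G1 was 0.0711 at a mean of 50 CPM and 0.37 on TPM, against 0.13. For G2/M over S it was 0.21 with DESeq2 size factors, 0.22 with total fragments, 0.18 with the length adjustment and 0.25 on TPM, against 0.20, and 0.1964 to 0.2142 with each column left out in turn. Glycolysis genes lowest in S numbered 10, and 6 on TPM, and those lower in S than in G1 numbered 11, and 7 on TPM. TPM moves all genes alike, so the members' distance to the median of all genes stays as on CPM.

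Of 96 ratios of single genes, 13 changed sign with the length adjustment, none larger than 0.215 on the log2 scale, and 15 on TPM, none larger than 0.19. More of them left their counting interval, 53 with the length adjustment and 72 on TPM. The printed intervals thus do not cover the choice of scale. No called ratio changed sign under any alternative tried. Both called ratios were of Ldhb, at 1.499 and 1.78, and no alternative moved any of the 96 by more than 0.304. A change of sign was therefore out of reach. No paired analysis was possible because the columns of a phase were treated as repeat measurements of 1 library and no test was run. Depth does not limit the members above 50 CPM, whose counting intervals are narrow; what is lacking is a second culture per phase and an S library of the same lot mark as the others.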

Other observations

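The serine branch of glycolysis differed by enzyme. Psat1, its aminotransferase, had 349.99 in G1, 344 in S and 531 CPM in G2/M, a log2 ratio of 0.63 for G2/M over S. Phgdh, the first enzyme of the route, was also highest in G2/M, with 203, 224 and 283 CPM, while Psph, the phosphatase at its end, was highest in G1, with 34.3, 23.3 and 27.1 CPM. Gfpt1, which opens the hexosamine route, had 128, 161 and 207 CPM in G1, S and G2/M. Prkaa1, the other catalytic subunit of AMPK, had 117, 156 and 207 CPM, and Aco1, the cytosolic aconitase, 42.4, 56.8 and 68.02 CPM.

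The non-oxidative pentose phosphate genes did not share one order of phases. Rpia, an isomerase, had 38.7, 30.8 and 24.1 CPM in G1, S and G2/M, Rpe, an epimerase, had 56.9, 70.2 and 37.6 CPM, and Taldo1 (transaldolase) had 115, 69.2 and 96.4 CPM. These are single libraries with no replicate error. Phgdh and Psph lie outside the rule for named genes and were chosen after their values were seen; the others meet it.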
